A study of Mus musculus with 18 samples.

Results

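The lining of the mouse trachea was compared with the leukocytes that live in and under it, both taken as sorted cells from the same organ. The comparison covers 11 of the 18 RNA-sequencing libraries of the series, chosen by their labels alone: 7 of EpCAM+ cells and 4 of CD45+ hematopoietic cells. Per the design text and the labels, all samples came from the trachea of naive RP23-268L19-EGFP transgenic mice. Their bacterial artificial chromosome places eGFP at the choline acetyltransferase gene, and both groups carry it. EpCAM+ cells were CD45 negative and EpCAM positive, a gate that as worded does not exclude the eGFP+ brush cells, and CD45+ cells were sorted separately with the same antibodies. Dissociation used dispase followed by papain, propidium iodide marked the dead cells to leave out, and sorting was into lysis buffer. Age and sex are not given in the labels used here, nor is it stated that each library is a different animal. The p-values therefore cover no more than the variation among these libraries, part of which may be technical.

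The tracheal surface is a pseudostratified epithelium in which basal cells anchor to the basement membrane and renew the tissue, secretory cells coat the surface with antimicrobial and anti-inflammatory proteins and detoxify inhaled compounds, and ciliated cells move the mucus. Scattered among and beneath them are macrophages and dendritic cells that sample antigen, B and T lymphocytes, innate lymphoid cells and mast cells. EpCAM is an adhesion protein of epithelial cells, and CD45, encoded by Ptprc, is a tyrosine phosphatase carried by nearly all leukocytes.

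Levels of 1 gene across libraries are given as CPM, counts scaled to a fixed library total, and levels of different genes are compared as TPM, which also accounts for transcript length. A difference is a log2 fold change, EpCAM+ minus CD45+, so positive values are higher in EpCAM+ cells. It was tested with the quasi-likelihood test of edgeR and called where the p-value adjusted by Benjamini-Hochberg was under 0.05. Values followed by SE are these log2 fold changes with their standard error. The EpCAM+ libraries totalled 2442601 to 6087184 counts each, and the CD45+ libraries 371652 to 7438791. A library stood apart in each group, by its Spearman correlation across genes with the other libraries of its own group, which is a description over genes and not over independent replicates. EpCAM+ library 5 had a median of 0.7794 against 0.8789 to 0.931 in the other EpCAM+ libraries, and CD45+ library 1, the one of lowest depth, had 0.7346 against 0.9132 to 0.923. Between 12.21 and 34.11% of an EpCAM+ library, and 20.72 to 43.38% of a CD45+ library, was ribosomal RNA. In bulk samples such as these, fewer cells of a type and less RNA per cell cannot be told apart.

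The genes of the sort came first as a check of the labels. Epcam (GRCm38 chromosome 17, 87635979 to 87651129, plus strand) had 377 to 750.2 CPM (median 427) in EpCAM+ cells and 34.1, 24.99, 28.02 and 23.5 CPM in CD45+ libraries 1 to 4 (4.18 ± 0.43 SE, adjusted p = 7.65e-07). Ptprc (chromosome 1, 138062861 to 138175708, minus strand) had a single count over the 7 EpCAM+ libraries together, and 1473, 813, 810.03 and 599.7 CPM in the CD45+ libraries. No library went against its label. Krt5 (chromosome 15, 101707070 to 101712898, minus strand), the basal cell keratin, and Bpifa1 (chromosome 2, 154142880 to 154149219, plus strand), a secreted airway surface protein, were not part of the gate. Krt5 had 298 to 1191 CPM (median 969) in EpCAM+ cells against 0, 13.4, 4.53 and 3.12 CPM in CD45+ cells (7.22 ± 0.76 SE, adjusted p = 8.63e-07). Bpifa1 had 20713 to 100676 CPM (median 57771) against 76.7, 1084, 447 and 279 CPM (7.0 ± 0.93 SE, adjusted p = 9.96e-06). For all 4 genes the groups did not overlap.

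Of 12516 genes tested, 2689 (21.5%) were called higher in EpCAM+ cells and 2043 (16.3%) higher in CD45+ cells, together 37.8%. These shares are given as background for the counts of each gene group below. The gene lists were chosen with earlier results of these data known, and some hold genes of the sort, such as Epcam and Ptprc. Counts above these shares are therefore descriptions, and no list was tested as a set. The groups did not overlap for 17.1% of genes with EpCAM+ higher and 11.8% with CD45+ higher. The median log2 fold change over all genes tested was 0.125. Without the 2 libraries that stood apart, 2958 and 2813 genes were called. Of 7772 genes with a mean of at least 10 CPM in CD45+ cells, 180 had no count in any EpCAM+ library. Conversely, of 8021 genes that reached a mean of 10 CPM in EpCAM+ cells, 48 had no count in any CD45+ library. Where 1 group has no counts, a fold is given as a lower bound against 3 counts over that whole group, and where it has 1 to 3 counts, as a ratio with a 95% interval for counting error only.

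**Figure D1:**
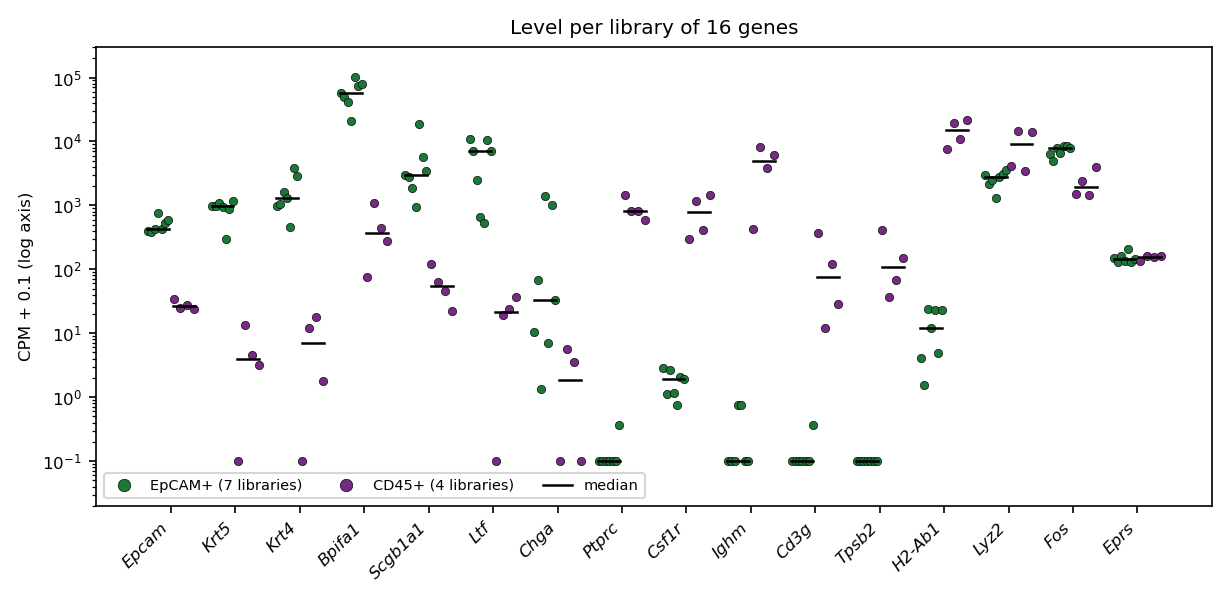
CPM plus 0.1 on a log axis for 16 genes, with 1 point per library and a bar at the group median. The 7 EpCAM+ libraries lie above the 4 CD45+ libraries for Epcam, Krt5, Krt4, Bpifa1, Scgb1a1, Ltf and Fos and below them for Ptprc, Csf1r, Ighm, Cd3g, Tpsb2 and H2-Ab1, while Chga, Lyz2 and Eprs overlap.

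By transcript level, the EpCAM+ libraries were led by secreted proteins. The ranking left out ribosomal RNA, ribosomal protein, microRNA and mitochondrial genes, gene models named only by clone or number, and some pseudogenes. Of the rest, Bpifa1 was the most abundant at 57304 ± 19775 TPM (SD, n = 7), followed by Scgb1a1, which encodes the club cell secretoglobin, at 18604 ± 9692 TPM. The spread of Scgb1a1 over libraries was wide, and its lead over the protein-coding genes that followed does not go beyond that spread. These were Cbr2, a carbonyl reductase, at 10300.5 ± 3037 TPM, Cyp2f2, a cytochrome P450 of airway secretory cells, at 8245 ± 2026 TPM, and Gsto1, a glutathione transferase, at 7111 ± 1146 TPM. Ltf, which encodes the iron-binding protein lactotransferrin, had 5996 ± 4705 TPM, and Reg3g, an antibacterial lectin, had 5909 ± 2571 TPM. The secretoglobins Scgb3a2 and Scgb3a1 had 5522 ± 2376 and 5143 ± 3792 TPM, and Wfdc2, a small secreted protein with protease inhibitor folds, had 3627 ± 799 TPM. Levels from Ltf to Wfdc2 overlapped within their spread.

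Secretory and goblet cell genes were higher in EpCAM+ cells for 18 of 20 tested members of 24 listed, with a median log2 fold change of 6.28 (6.05 with the 1 gene that had no counts in 1 group at their lower bound). Scgb1a1 had 938 to 18888 CPM (median 2932) in EpCAM+ cells and 119, 63.7, 45.02 and 21.8 CPM in CD45+ cells (6.43 ± 0.99 SE, adjusted p = 4.8e-05). The highest value, 18888 CPM, belonged to EpCAM+ library 5, and the next was 5731 CPM in library 6, but even the lowest EpCAM+ library lay above every CD45+ library. Scgb3a1 and Scgb3a2 were highest in library 5 as well, with 8415 and 8433 CPM against medians of 909.6 and 1081 CPM. Of the gel-forming mucins of airway mucus, Muc5b had 19.3 to 345 CPM (median 108) in EpCAM+ cells and 2.84, 6.13, 1.65 and 2.16 CPM in CD45+ cells (5.41 ± 0.91 SE, adjusted p = 0.000122). Muc5ac, the mucin of goblet cells, was near the limit of detection, with at most 4.57 CPM in EpCAM+ libraries and no counts in CD45+ libraries, and was not tested. Galnt6, an enzyme that starts mucin-type O-glycosylation, was the single listed gene called the other way, at 1.97 ± 1.73 CPM (SD, n = 7) in EpCAM+ and 29.9 ± 16.3 CPM (SD, n = 4) in CD45+ cells (-3.92 ± 0.62 SE, adjusted p = 6.54e-05).

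Basal cell genes were all higher in EpCAM+ cells, 25 of 25 tested and listed, with a median of 6.17. Besides Krt5, the leading members were Krt15 with 3058 to 3990.2 CPM (median 3591) against 2.84, 30.2, 27.4 and 3.12 CPM (7.72 ± 0.8 SE, adjusted p = 7.58e-07), Krt17 at 7.88 ± 0.86 SE and Aqp3, a glycerol and water channel, at 6.25 ± 0.71 SE. The keratins differed in how they varied among EpCAM+ libraries. Krt15 stayed within 3058 to 3990 CPM in all 7, while Krt5 was 298 CPM in library 5 and 891 to 1191 CPM in the other 6. Trp63, the transcription factor that defines basal cells, had 76.8 to 223 CPM (median 161) against 0, 2.36, 1.55 and 0 CPM (6.87 ± 0.75 SE, adjusted p = 1.39e-06). Counts of keratins are uncertain, since how reads shared between related genes were assigned is not given.

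Of the suprabasal and hillock genes, which mark the layers above basal cells and the stratified islands of the trachea, 11 of 14 tested were higher in EpCAM+ cells and none in CD45+ cells. The hillock keratins were those that set the EpCAM+ libraries apart from each other. Krt13 had 80.9, 104, 379.9, 322, 234, 1229.9 and 1073 CPM in libraries 1 to 7 and Krt4 had 976, 1057, 1633, 1326, 452, 3844 and 2866 CPM. Libraries 6 and 7 held the highest values of both genes. Both were far above CD45+ cells all the same (8.62 ± 1.12 SE for Krt13, adjusted p = 7.92e-06, and 7.58 ± 0.98 SE for Krt4, adjusted p = 7.95e-06). Krt7 and Krt19, keratins of simple epithelium, were even across the EpCAM+ libraries, at 1394 ± 150.4 and 1472 ± 135 CPM (SD, n = 7). Ecm1, Lgals3 and Ly6d were tested and not called. Ly6d, also a gene of B cells and basal cells, missed the threshold narrowly and was called higher in CD45+ cells in 13 of the alternative settings.

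Epithelial adhesion and junction genes gave 29 of 31 tested members higher in EpCAM+ cells, median 5.88. Perp, a desmosome component, had 1275 ± 495 CPM against 9.42 ± 7.24 CPM (6.96 ± 0.71 SE, adjusted p = 6.99e-07), and the tight junction protein Cldn3 had 525 ± 287 against 2.18 ± 2.23 CPM (7.65 ± 0.74 SE, adjusted p = 3.92e-07). E-cadherin, encoded by Cdh1, had 59.7 to 315 CPM (median 131) against 2.84, 7.78, 3.19 and 2.64 CPM (5.23 ± 0.66 SE, adjusted p = 6.42e-06). The claudin Cldn1 went the other way and at a low level, with 1.12 to 6.85 CPM (median 1.62) in EpCAM+ and 8.52, 11.6, 16.4 and 15.6 CPM in CD45+ cells (-2.31 ± 0.5 SE, adjusted p = 0.00124), and the groups did not overlap. Marveld2, the tricellulin gene, was the 1 member tested and not called. Among surface proteases and their inhibitors 15 of 19 tested members were higher in EpCAM+ cells, led by Wfdc2 (7.88 ± 0.9 SE), the Kunitz inhibitor Spint2 (4.79 ± 0.55 SE), Serpinb5 (7.36 ± 0.81 SE) and the membrane protease Tmprss2 (5.18 ± 0.8 SE). Slpi, the secretory leukocyte protease inhibitor, was the exception: 0.622 to 4.15 CPM (median 0.979) in EpCAM+ cells and 36.9, 152, 62.3 and 35.95 CPM in CD45+ cells (-5.44 ± 0.57 SE, adjusted p = 8.93e-07).

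Host defence genes were split. Of 26 listed and 17 tested, 10 were higher in EpCAM+ cells and 2 in CD45+ cells. Ltf had 11051, 7025, 2492, 651, 527, 10681 and 7139.6 CPM in EpCAM+ libraries 1 to 7 and 0, 19.1, 23.6 and 36.7 CPM in CD45+ cells (8.06 ± 1.2 SE, adjusted p = 3.59e-05). EpCAM+ libraries 4 and 5 were the lowest and libraries 1 and 6 the highest, a range wider than for most epithelial genes named here, but it did not reach the CD45+ values. Pigr, the receptor that carries immunoglobulin A across epithelium, had 230.4, 217, 57.6, 15.2, 50.3, 169 and 78.05 CPM, and Muc5b had 345, 208, 24.2, 19.3, 60.7, 198 and 108 CPM. Library 1 was the highest and library 4 among the lowest 2 for Ltf, Pigr and Muc5b, which were set side by side after their values were seen. Reg3g (6.35 ± 1.0 SE), the surfactant protein gene Sftpa1 (5.81 ± 1.15 SE) and the beta-defensin gene Defb1 (8.26 ± 1.02 SE) were also higher in EpCAM+ cells, while the interferon-induced Gbp2 (-2.15 ± 0.54 SE, adjusted p = 0.00369) was higher in CD45+ cells. C3, Cfb, Hp, Lcn2 and Lyz1 were tested and not called. Lyz1 had 917 CPM in EpCAM+ library 6 and at most 40.4 CPM in the other 6, against 324, 1722, 219.8 and 1054 CPM in CD45+ cells, so that the groups overlapped through 1 library, and without that library Lyz1 was called higher in CD45+ cells (-5.25 log2). Lysozyme genes are near-identical copies in part, and their split is uncertain.

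Genes of xenobiotic metabolism were higher in EpCAM+ cells in 24 of 26 tested, median 6.32. Cyp2f2 had 8745 to 25256 CPM (median 15634) against 17.03, 152, 132 and 46.98 CPM (7.51 ± 0.81 SE, adjusted p = 1.15e-06). Gsto1 (6.35 ± 0.65 SE), Cbr2 (4.71 ± 0.79 SE) and the glutathione transferase Gstm1 (5.82 ± 0.69 SE) followed. The summed CPM of the 30 listed genes were 30760.3 to 99162 (median 41491) in EpCAM+ cells, with the highest sum in library 5, and 869, 913, 752 and 1203 in CD45+ libraries 1 to 4. The glucuronosyltransferase Ugt1a7c was called higher in CD45+ cells (-4.26 ± 0.74 SE, adjusted p = 0.000164), with no counts in CD45+ library 1 and 45.98, 24.9 and 53.2 CPM in the others. For ion and water transport 16 of 18 tested were higher in EpCAM+ cells, led by Aqp5, the apical water channel, with 887 to 2734 CPM (median 1642) against 5.68, 6.6, 8.86 and 0.479 CPM (8.22 ± 0.82 SE, adjusted p = 5.42e-07). Atp1b1 (5.16 ± 0.48 SE), a subunit gene of the sodium pump, and the peptide transporter gene Slc15a2 (4.64 ± 0.75 SE) were higher too. Cftr, the chloride channel mutated in cystic fibrosis, was found in all 7 EpCAM+ libraries at 0.28 to 6.34 CPM (median 1.8) and in no CD45+ library, and was too low to be tested. The water channel gene Aqp1 was called higher in CD45+ cells (-3.5 ± 0.97 SE, adjusted p = 0.00764), but the groups overlapped and DESeq2 did not call it (adjusted p = 0.106).

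Genes of ciliated, ionocyte and brush cells summed to less than those of basal and secretory cells in EpCAM+ cells, and neuroendocrine genes were uneven. Ciliated cell genes were higher in EpCAM+ cells for 24 of 25 tested, median 4.67 (4.49 with the 6 genes that had no counts in 1 group at their lower bound), and the 26 listed genes summed to 437 to 1664 (median 694) CPM in EpCAM+ cells and to 213, 433, 161 and 581 CPM in CD45+ cells, with overlap. Tppp3 was the tested member not called. A sum does not show how many members contribute to it. The number of ciliated genes called, 24, was 13 with only replicates 1 to 4 of each group, 11 with the replicate block on these and 6 with a mean of at least 10 CPM required, a filter that leaves fewer of them in the test. Foxj1, the master regulator of motile cilia, had 1.96 to 7.86 CPM (median 5.1) in EpCAM+ libraries and a single count over the CD45+ libraries, a ratio of 97.8 (95% interval 17.3 to 3885). Cfap43, a ciliary protein gene, was called higher in EpCAM+ cells from the count table (1.98 ± 0.57 SE, adjusted p = 0.0101) and higher in CD45+ cells from the authors' RSEM expected counts (-1.96 log2, adjusted p = 0.00363). Chga, chromogranin A of neuroendocrine cells, was uneven: 10.3, 66.8, 1.26, 1378, 6.85, 1004 and 32.7 CPM in EpCAM+ libraries 1 to 7 and 0, 5.66, 3.5 and 0 CPM in CD45+ cells (6.98 ± 1.96 SE, adjusted p = 0.00857). Libraries 4 and 6 were far above the rest, the groups overlapped, and limma voom did not call it (adjusted p = 0.105). The proton pump subunit gene Atp6v1b1, known from ionocytes, had 15.6 ± 5.49 against 0.298 ± 0.359 CPM (5.06 ± 0.65 SE, adjusted p = 7.62e-06), while Foxi1, the ionocyte factor, did not pass the filter. Atp6v0d2 (-4.91 ± 0.67 SE) and Stap1 (-4.79 ± 0.57 SE) of the ionocyte list were higher in CD45+ cells. Of 17 brush cell genes 7 were tested, and 5 of these were higher in CD45+ cells, among them Alox5ap (-7.34 ± 1.0 SE) and Ltc4s (-5.69 ± 0.68 SE), which leukocytes use to make leukotrienes, and Plcb2 (-7.22 ± 0.66 SE). Avil (2.4 ± 0.65 SE) and Dclk1 (3.99 ± 0.84 SE) were higher in EpCAM+ cells. Both were low there, since all 17 brush cell genes together summed to 10.4 to 42.0 CPM in EpCAM+ libraries. The number called toward EpCAM+ cells, 2, was 1 with only replicates 1 to 4 and 0 with a mean of at least 10 CPM required. Pou2f3, the brush cell transcription factor, had at most 3.96 CPM in EpCAM+ libraries and no counts in CD45+ libraries.

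Genes of the epithelial transcription factor list were nearly uniform, 28 of 29 tested being higher in EpCAM+ cells, median 6.42 (5.80 with the 5 genes that had no counts in 1 group at their lower bound). The list also holds the splicing regulators Esrp1 and Esrp2, both called higher in EpCAM+ cells. Elf3, an epithelial ETS factor, had 145 to 923 CPM (median 541) against 0, 10.6, 2.16 and 3.6 CPM (6.92 ± 0.78 SE, adjusted p = 1.96e-06), and its lowest value was that of library 5. Ehf (5.63 ± 0.61 SE), Klf5 (7.07 ± 0.57 SE) and Id1 (5.8 ± 0.72 SE) followed. Nkx2-1, which specifies lung and trachea, had 8.09 to 47.9 CPM (median 18.6) in EpCAM+ libraries and no counts in CD45+ libraries, at least 153-fold higher. Grhl2, which maintains epithelial junction genes, had 42.4 to 114 CPM (median 63.02) against 0, 1.41, 0 and 0.479 CPM (6.99 ± 0.78 SE, adjusted p = 1.67e-06). Klf4 was the 1 tested factor not called.

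The largest differences toward EpCAM+ cells, among called genes that reached 50 CPM and did not overlap, included genes outside any list. Lurap1l had 29.4 to 118 CPM (median 84.8) in EpCAM+ cells and no counts in CD45+ cells, at least 492-fold higher, and Rnf186, a ubiquitin ligase, 32.1 to 158 CPM (median 41.6) against no counts, at least 366-fold higher. The aldehyde dehydrogenase Aldh1a7 was 2425 (95% interval 435 to 95803) times higher, the cytolinker epiplakin, Eppk1, 1582 (95% interval 284 to 62511) times, and Cblc, a ubiquitin ligase of epithelial cells, 1116 (95% interval 200.04 to 44099) times. Upk3bl (9.63 ± 1.11 SE), the small GTPase gene Rab25 (8.54 ± 0.99 SE) and the sodium pump regulator gene Fxyd3 (8.41 ± 1.04 SE) were among the 20 largest, and these 3 had their highest value in library 5, at 795, 723 and 1354 CPM against medians of 224, 196 and 176 CPM.

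**Figure D2:**
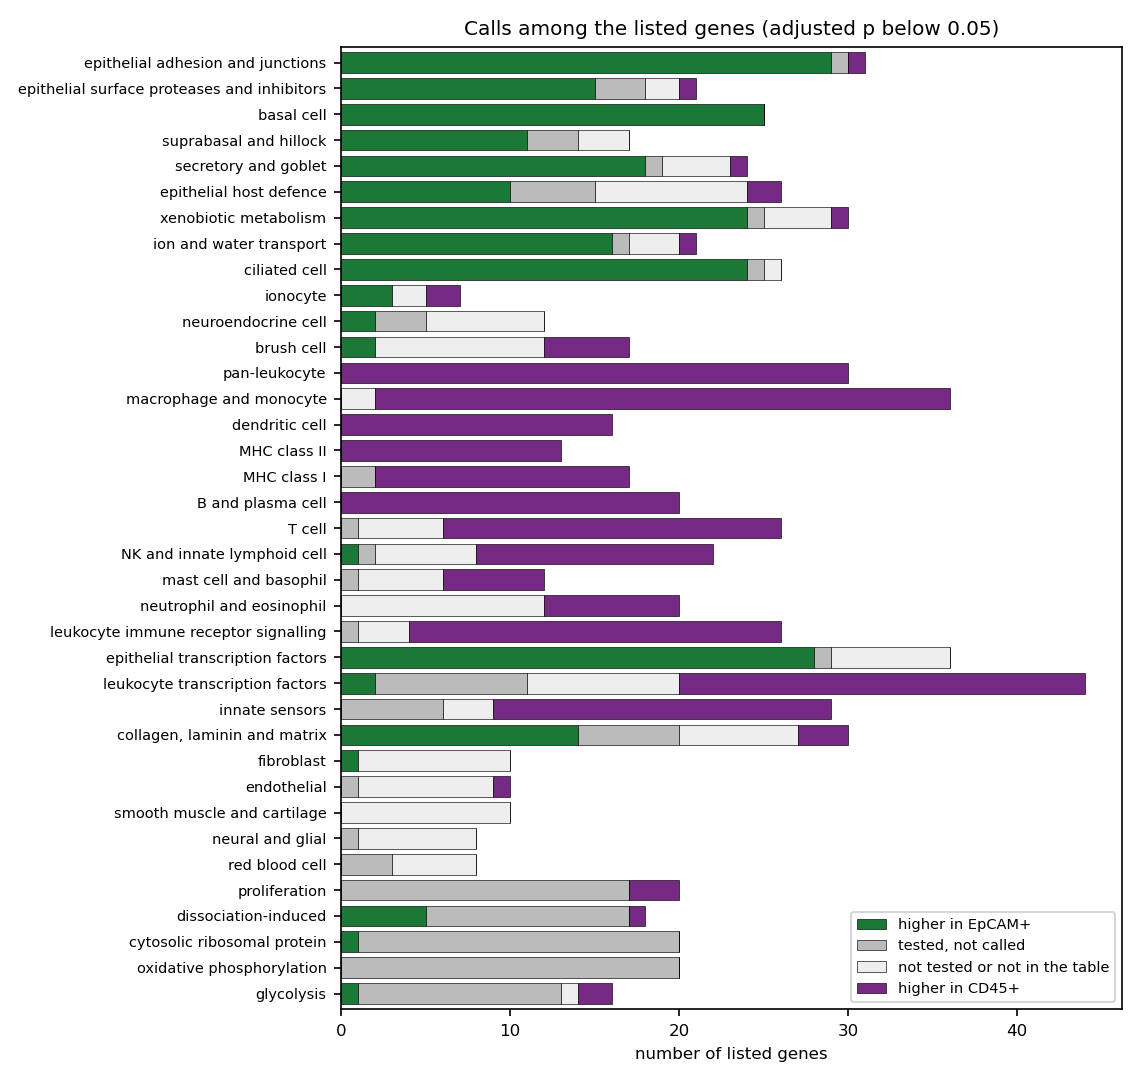
Number of genes in each of 37 lists that were called higher in EpCAM+ cells, called higher in CD45+ cells, tested without a call, or not tested or not in the table. Basal cell genes, 25 of 25, and pan-leukocyte genes, 30 of 30, lie wholly on opposite sides, and ribosomal protein, oxidative phosphorylation and glycolysis genes are mostly uncalled.

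The CD45+ libraries were led by lysozyme and antigen presentation. Lyz2, the macrophage lysozyme, had 14392 ± 10239.7 TPM (SD, n = 4), and the MHC class II genes H2-Ab1, H2-Aa and H2-Eb1 had 13603 ± 6908, 12199.8 ± 5859 and 8045 ± 3917 TPM. The immunoglobulin kappa constant gene Igkc had 9258 ± 3596 TPM and the invariant chain gene Cd74 had 7092 ± 4606 TPM. Apoe, a lipid carrier of macrophages, Cst3, a cystatin of myeloid cells, and Retnla, a secreted protein of alternatively activated macrophages, had 6457 ± 4591, 5768 ± 1409 and 4305 ± 2077 TPM. The order of these genes does not go beyond their spread over 4 libraries. Lyz2 was high in both groups. It had 1306 to 3589 CPM (median 2818) in EpCAM+ cells and 4077, 14387, 3437 and 13941 CPM in CD45+ cells (-1.77 ± 0.49 SE, adjusted p = 0.0075), and the groups overlapped. Lyz2 ranked 12th by TPM in EpCAM+ cells, with the same genes left out as above.

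Pan-leukocyte genes were higher in CD45+ cells without exception, 30 of 30, median -10.41 (-10.37 with the 7 genes that had no counts in 1 group at their lower bound). Here and in the leukocyte lists below, a gene almost absent from EpCAM+ cells was tested only if all 4 CD45+ libraries held it. Its call toward CD45+ cells was then nearly fixed beforehand. The number of calls in these lists is therefore not evidence by itself that a cell type was present. Laptm5, a lysosomal protein of hematopoietic cells, had 0 to 0.793 CPM (median 0.207) in EpCAM+ and 971, 1433, 1433 and 1914 CPM in CD45+ cells (-12.38 ± 0.68 SE, adjusted p = 2.13e-09). Coro1a (-12.41 ± 0.89 SE) followed. The actin-bundling gene Lcp1 was the member with the highest EpCAM+ values of those named, at 8.5 to 38.98 CPM (median 23.5) against 440.1, 1423, 894 and 855 CPM (-5.25 ± 0.49 SE, adjusted p = 2.41e-07). The 30 genes summed to 51.5 to 117 (median 88.98) CPM in EpCAM+ cells, a mean of 0.687% of the CD45+ mean. Genes of signalling from leukocyte immune receptors were higher in 22 of 23 tested, among them the kinases Syk (-7.18 ± 0.39 SE) and Lyn (-3.53 ± 0.5 SE). Tyrobp, the signalling adaptor of myeloid and NK receptors, had no counts in EpCAM+ cells and 1596, 537, 367 and 785 CPM in CD45+ cells, at least 8479.96-fold higher.

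Macrophage and monocyte genes were higher in CD45+ cells for 34 of 34 tested, median -10.54 (-9.59 with the 11 genes that had no counts in 1 group at their lower bound). The complement C1q genes had no counts in any EpCAM+ library. C1qa had 1062, 864, 486 and 2135 CPM and C1qb 1119, 1035, 512 and 2367 CPM in CD45+ cells, at least 11741-fold and at least 12997-fold higher. Csf1r, the receptor that macrophages need to survive, had 0.653 to 2.78 CPM (median 1.83) in EpCAM+ cells and 292, 1173, 417 and 1465 CPM in CD45+ cells (-8.95 ± 0.6 SE, adjusted p = 9.48e-09), with CD45+ libraries 2 and 4 the highest. Among inflammatory products, Il1b had 1454, 2799.8, 820.1 and 3044 CPM in CD45+ cells and at most 0.524 CPM in EpCAM+ cells (-13.65 ± 0.83 SE, adjusted p = 4.51e-09), and Ccl4 had 2399, 193, 149.8 and 399 CPM and no counts in EpCAM+ cells. Which leukocytes made them cannot be told from these bulk libraries. Ccl4 was highest in library 1, Il1b in libraries 2 and 4. All 16 dendritic cell genes were called, including the lectin gene Cd209a, with 96.5, 925, 415 and 1192 CPM and none in EpCAM+ cells, at least 6789-fold higher, and Ccr7, the receptor for migration to lymph nodes, with 51.1, 534, 1721 and 263 CPM. Library 3 was highest for Ccr7 and library 4 for Cd209a. Among the 20 largest differences toward CD45+ cells were also the myeloid genes Mgl2, a lectin of macrophages and dendritic cells, with 53.9, 636, 306 and 1214 CPM, C5ar1, the complement C5a receptor, with 53.9, 317, 224 and 1002 CPM, and Ccl2, a monocyte chemokine, with 468, 219, 109 and 590.3 CPM. Mgl2 had no counts, C5ar1 no counts and Ccl2 no counts over the EpCAM+ libraries.

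Antigen presentation divided by class. All 13 of 13 genes of the MHC class II list, which also holds Cd40, Cd80, Cd86 and Ciita, were higher in CD45+ cells, median -9.91. H2-Ab1 had 1.45 to 23.6 CPM (median 11.9) in EpCAM+ cells and 7515, 19373, 10844 and 21726 CPM in CD45+ cells (-10.13 ± 0.84 SE, adjusted p = 7.83e-08). Summed over the list, EpCAM+ libraries held 13.9 to 86.1 (median 30.8) CPM and CD45+ libraries 30577, 64772, 28779 and 65174. The MHC class I list also holds genes that cut, transport and load its peptides. Its genes were higher in CD45+ cells in 15 of 17 tested, with a smaller median of -2.54, and those named here were well expressed on either side. H2-K1 had 517 to 771 CPM (median 712) against 1119, 2616, 2732 and 2873 CPM (-1.85 ± 0.37 SE, adjusted p = 0.000664), H2-D1 -2.43 ± 0.44 SE, and B2m, the class I light chain, 184 to 1169 CPM (median 243) against 5539, 2002, 1972 and 2741 CPM (-3.08 ± 0.56 SE, adjusted p = 0.000258). The immunoproteasome gene Psmb8 (-3.6 ± 0.51 SE) was higher in CD45+ cells too. Tapbp and Erap1, which load and trim class I peptides, were tested and not called. MHC genes are related in sequence, and their counts share the uncertainty given for keratins.

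Most of the lymphocyte, mast cell and granulocyte genes that could be tested were higher in CD45+ cells. All 20 of 20 B and plasma cell genes were called, median -9.68 (-9.33 with the 7 genes that had no counts in 1 group at their lower bound). Igkc had 2004, 3003, 2129.8 and 2757 CPM in CD45+ cells but was without a count in EpCAM+ cells, at least 25552-fold higher, the largest bound of any gene named. Ighm, the IgM heavy chain gene, had 434, 8182, 3806 and 6161 CPM in CD45+ cells and 7 counts in EpCAM+ cells, and library 1 was lowest. Ighg2b, an IgG heavy chain gene, had 39.7, 13.9, 1369 and 51.5 CPM, with library 3 far above the others. The B cell surface genes Ms4a1 and Cd79b had 187, 528, 386 and 114 CPM and 499.7, 295, 349.6 and 143 CPM. Cd37, of the pan-leukocyte list, had 281, 285, 466 and 198 CPM. T cell genes were called in 20 of 21 tested. Cd3g, a subunit of the T cell receptor complex, had 363, 12.02, 121 and 29.00 CPM and 1 count in EpCAM+ cells, and libraries 1 and 3 were the highest. NK and innate lymphoid genes were higher in CD45+ cells in 14 of 16 tested, among them Nkg7 with 434, 18.9, 103 and 41.7 CPM, a cytotoxic granule gene, and Il7r with 358, 52.3, 159.99 and 78.1 CPM, a receptor of lymphocytes and innate lymphoid cells. Il18r1, the interleukin-18 receptor, was called toward EpCAM+ cells with overlap, at 22.2 to 56.4 CPM (median 51.3) against 25.6, 8.96, 35.03 and 13.2 CPM (1.15 ± 0.42 SE, adjusted p = 0.0401), and that call was lost in 12 of the alternative settings.

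Mast cell genes passed the test in 6 of 7 tested of 12 listed, among them the tryptase gene Tpsb2, with 417, 37.02, 68.6 and 151 CPM and no counts in EpCAM+ cells, and Cpa3, the mast cell carboxypeptidase, with 73.8, 42.7, 51.8 and 170.4 CPM. Library 1 was highest for Tpsb2 and library 4 for Cpa3. Kit, the stem cell factor receptor, was not called (-0.75 ± 0.37 SE, adjusted p = 0.13), with 10.1 to 24.6 CPM (median 21.6) in EpCAM+ and 17.03, 20.04, 48.5 and 36.4 CPM in CD45+ cells. All 8 tested neutrophil and eosinophil genes were higher in CD45+ cells, while 12 of 20 listed did not pass the filter, among them Ly6g, Mpo, Elane, Epx and Ccr3. A gene almost absent from EpCAM+ cells is tested only if all 4 CD45+ libraries hold it, so its call toward CD45+ cells was nearly fixed beforehand. The 8 calls therefore do not show that granulocytes were present. S100a9, a calcium-binding protein of neutrophils and monocytes, had 59.6, 74.5, 159.6 and 95.9 CPM and 1 count in EpCAM+ cells. The filter asks for about 10 counts in a library of median size in at least 4 libraries. Leukocyte genes missing from a CD45+ library, or near 0 in it, were therefore left out of the test. Mcpt4, a mast cell protease, had 96.5, 0.236, 27.1 and 155 CPM, and Ncr1, an NK cell receptor, had 0, 8.49, 17.4 and 10.3 CPM.

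**Figure D3:**
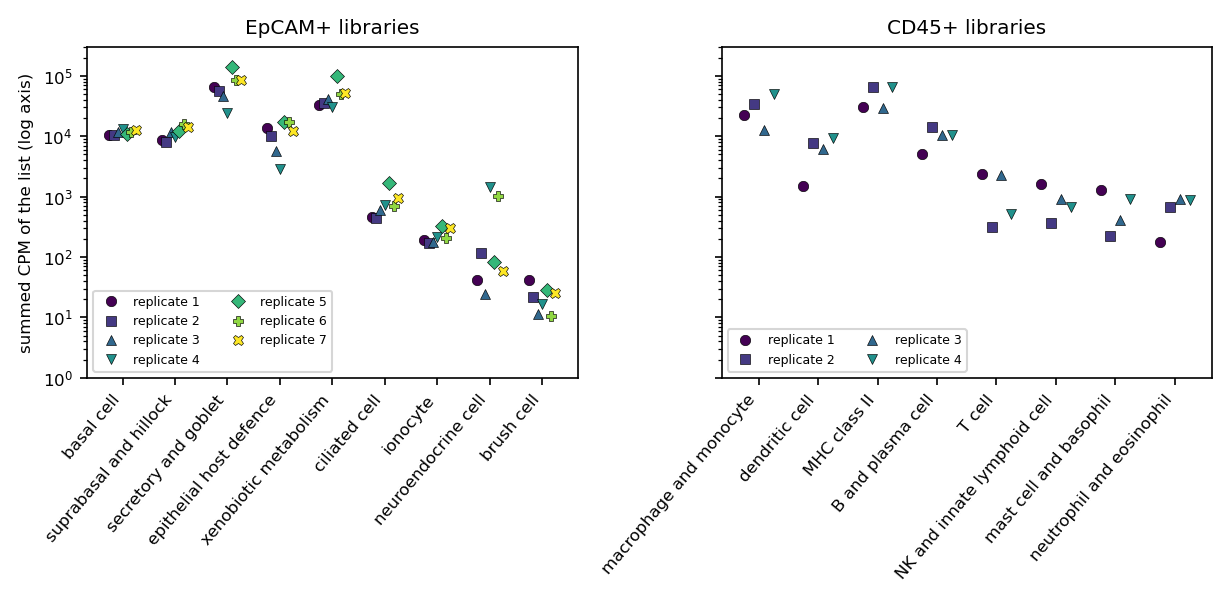
Summed CPM of cell type lists in each library, on a log axis, EpCAM+ libraries on the left and CD45+ libraries on the right, with 1 symbol per replicate number. Basal cell sums stay within 10646 to 13239 CPM in the EpCAM+ libraries while neuroendocrine sums spread over 24.00 to 1426 CPM, and CD45+ libraries 1 and 3 are high for T cell genes where libraries 2 and 4 are high for macrophage and MHC class II genes.

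The CD45+ libraries held genes of the same leukocyte classes at unequal levels. Summed over each list, T cell genes came to 2365, 315, 2298 and 514 CPM in libraries 1 to 4, and macrophage and monocyte genes to 22136, 33608, 12759 and 49533 CPM. B and plasma cell genes came to 5008, 14351, 10288 and 10528 CPM and mast cell and basophil genes to 1309, 219, 415 and 922 CPM. Libraries 1 and 3 were high for T cells, and 2 and 4 for macrophages. Whether these differences follow the animals, the preparation or, for library 1, the low depth was not tested. The EpCAM+ libraries were more alike in basal genes, with sums of 10646 to 13239 (median 11599.9) CPM, than in secretory genes, with 24132 to 140078 (median 64805) CPM, of which Bpifa1 made up the most.

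Leukocyte transcription factors were higher in CD45+ cells in 24 of 35 tested. Spi1, which encodes PU.1, the ETS factor of myeloid and B cells, had 25.6, 118, 73.5 and 147 CPM in CD45+ cells and a single count over the EpCAM+ libraries. Irf8 (-6.16 ± 0.4 SE) and Irf5 (-3.44 ± 0.46 SE), factors of monocytes, dendritic cells and macrophages, were also higher, and Pax5, the B cell factor, had 14.2, 16.03, 31.4 and 3.36 CPM and no counts in EpCAM+ cells. Id3 (1.71 ± 0.52 SE, adjusted p = 0.014) and Ikzf2 (1.77 ± 0.38 SE, adjusted p = 0.00123) were called toward EpCAM+ cells, with no overlap, and Runx1, a factor of blood formation, was not called, at 123 ± 21.7 CPM in EpCAM+ and 69.9 ± 14.5 CPM in CD45+ cells, but was called higher in EpCAM+ cells in 7 of the alternative settings. The PU.1 core letters GAGGAAGT, searched on both strands in RefSeq promoter windows of GRCm38.p6 from 250 bases before to 50 after the gene start, were present for 3.69% of the 27025 genes with a window and 3.92% of the 9635 tested genes matched by symbol. They were present for 9.11% of 1514 genes called higher in CD45+ cells and 2.9% of 2001 called higher in EpCAM+ cells. The grainyhead-like letters AACCGGTT, of the family of Grhl2, were rare everywhere, at 0.301% of tested genes and 0.35% of those called higher in EpCAM+ cells. These shares are descriptions without a test, and a match is not a binding site. Shown here are stretches of 4 of the windows, to make the match visible, taken in order of difference among CD45+ genes that reached 50 CPM without overlap and had a match upstream of the start, outside annotated exons. They are printed 5′ to 3′ on the strand of the gene, with the matching letters, as spelled or as reverse complement, in capitals.
Pf4 (chr5:90772315-90772434, plus strand): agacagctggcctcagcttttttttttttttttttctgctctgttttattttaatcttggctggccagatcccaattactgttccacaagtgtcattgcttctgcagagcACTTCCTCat
Mmp12 (chr9:7344253-7344372, plus strand): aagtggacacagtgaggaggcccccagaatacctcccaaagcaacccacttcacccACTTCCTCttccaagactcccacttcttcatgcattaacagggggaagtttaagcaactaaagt
Cd300ld (chr11:114989966-114990085, minus strand): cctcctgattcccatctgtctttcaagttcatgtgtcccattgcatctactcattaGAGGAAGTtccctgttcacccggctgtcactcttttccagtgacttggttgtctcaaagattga
Fcrl1 (chr3:87376267-87376386, plus strand): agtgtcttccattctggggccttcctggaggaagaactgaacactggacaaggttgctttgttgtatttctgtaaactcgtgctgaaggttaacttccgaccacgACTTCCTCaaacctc

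The match lay 10 bases before the start in Pf4, 88 in Mmp12, 143 in Cd300ld and 15 in Fcrl1. Pf4, a chemokine of platelets and macrophages, had 1320.2, 209, 148 and 692 CPM in CD45+ cells and 2 counts in EpCAM+ cells. Mmp12, the macrophage elastase gene, had 142, 139.6, 47.4 and 121 CPM, Cd300ld, a myeloid surface receptor gene, 56.8, 96.2, 56.8 and 172 CPM, and Fcrl1, a B cell surface receptor gene, 73.8, 60.8, 176 and 13.4 CPM, none of them with a count in EpCAM+ cells. Fcrl1 was highest in library 3 and the others were not, Pf4 being highest in library 1, Mmp12 nearly level in libraries 1, 2 and 4, and Cd300ld highest in library 4.

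Innate sensors were higher in CD45+ cells in 20 of 26 tested and in EpCAM+ cells in none. Ly86 and Clec7a, a partner of a Toll-like receptor and the beta-glucan receptor, had 568, 326, 189 and 401 CPM and 233, 371, 108 and 273 CPM in CD45+ cells and 1 count each in EpCAM+ cells. Tlr2, which senses bacterial lipoproteins, had 0.326 to 6.63 CPM (median 2.22) in EpCAM+ cells and 36.9, 352, 152 and 396 CPM in CD45+ cells (-6.21 ± 0.7 SE, adjusted p = 1.96e-06). Tlr3, Tlr4, Ly96, Myd88, Nod1 and Ifih1 were tested and not called. Tlr4, the endotoxin receptor, had 43.2, 38.4, 13.2, 5.1, 5.87, 14.00 and 2.36 CPM in EpCAM+ libraries 1 to 7 and 0, 36.3, 10.2 and 38.6 CPM in CD45+ cells (-0.41 ± 0.73 SE, adjusted p = 0.723), and the groups overlapped. Tmem173, which encodes STING, had 8.72 to 13.2 CPM (median 11.8) against 68.1, 67.4, 69.9 and 80.5 CPM and was higher in CD45+ cells (-2.64 ± 0.28 SE, adjusted p = 1.11e-06).

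Of 50 ligand and receptor pairs listed, both genes were called for 25. Each gene was tested by itself and no pair was tested, and RNA does not show that a protein reaches its receptor. In 9 pairs the ligand was higher in EpCAM+ cells and the receptor in CD45+ cells. Ccl20, the chemokine that draws Ccr6-bearing cells, had 11.2 to 214 CPM (median 14.7) in EpCAM+ cells and 0, 0, 0.412 and 0.479 CPM in CD45+ cells (7.14 ± 1.25 SE, adjusted p = 0.000185), with library 5 as the highest, and its receptor Ccr6 had 45.4, 39.8, 87.6 and 12.5 CPM in CD45+ cells and 1 count in EpCAM+ cells. Cx3cl1, a membrane-bound chemokine, had 38.8 to 124 CPM (median 48.5) against 0, 5.66, 13.3 and 1.92 CPM (3.31 ± 0.62 SE, adjusted p = 0.00031), and Cx3cr1 96.5, 154, 87.8 and 165 CPM in CD45+ cells and 2 counts in EpCAM+ cells. Il34, an alternative ligand of Csf1r, had 2.1 to 6.34 CPM (median 3.26) in EpCAM+ cells and no counts in CD45+ cells, at least 24.00-fold higher, while Csf1, the other ligand, was not called.

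The alarmin Il33 was low, at 0 to 10.3 CPM (median 2.35) in EpCAM+ cells and 2 counts over the CD45+ libraries, in libraries 1 and 3. The mean over libraries was 4.31 ± 3.88 against 0.736 ± 1.4 CPM (SD, n = 7 and 4), while the ratio of summed counts, in which the shallow CD45+ library 1 weighs little, was 43.8 (95% interval 11.9 to 365). The groups overlapped, and its call was lost without CD45+ library 3. Its receptor gene Il1rl1 had 65.3, 51.6, 19.3 and 60.9 CPM in CD45+ cells and 2 counts in EpCAM+ cells. Tslp, a further alarmin, was too low to be tested. E-cadherin has receptors on lymphocytes, and of these Itgae had 0 to 2.28 CPM (median 0.261) in EpCAM+ and 25.6, 20.04, 27.5 and 39.3 CPM in CD45+ cells (-5.01 ± 0.67 SE, adjusted p = 1.11e-05), and Klrg1 14.2, 5.42, 11.8 and 25.4 CPM in CD45+ cells and 3 counts in EpCAM+ cells. Anxa1 with Fpr2, Jag1 with Notch2 and Il7 with Il7r made up the rest, and for Jag1, Notch2 and Il7 the groups overlapped. The calls of Jag1 and Il7 were lost in 11 and 9 of the alternative settings.

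In 5 pairs the ligand was higher in CD45+ cells and the receptor in EpCAM+ cells. Osm, oncostatin M of the interleukin-6 family, had 22.7, 112, 48.8 and 89.2 CPM in CD45+ cells and none in EpCAM+ cells, at least 705-fold higher, and its receptor gene Osmr had 29.1 to 61.2 CPM (median 42.4) in EpCAM+ cells against 0, 0.707, 0.927 and 0 CPM in CD45+ cells (6.17 ± 0.62 SE, adjusted p = 6.03e-07). Il1a and Il1b faced Il1r1, at 16.5 to 40.4 CPM (median 24.6) against 11.4, 6.6, 7.73 and 9.59 CPM (1.63 ± 0.38 SE, adjusted p = 0.00234). Igf1 (-6.15 ± 0.91 SE) faced Igf1r (1.31 ± 0.35 SE, adjusted p = 0.00618), whose call was lost in 3 of the alternative settings, among them that without CD45+ library 3, and Il18 (-2.64 ± 0.55 SE) faced Il18r1, the call lost in 12 settings. Epidermal growth factor receptor ligands made 2 of 3 pairs that lay within EpCAM+ cells: Hbegf (4.56 ± 0.64 SE) and Tgfa with Egfr (2.38 ± 0.54 SE, adjusted p = 0.00189). The third was Wnt4 (6.21 ± 0.81 SE) with Fzd6. Tgfa and Fzd6 had a single count each over the CD45+ libraries, for ratios of 225 (95% interval 40.2 to 8923) and 244 (95% interval 43.6 to 9677). The 8 pairs within CD45+ cells included Ccl2 with Ccr2. Il13, Il4, Ifng, Il17a and Il22, cytokines of lymphocytes, did not pass the filter on low counts.

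**Figure D4:**
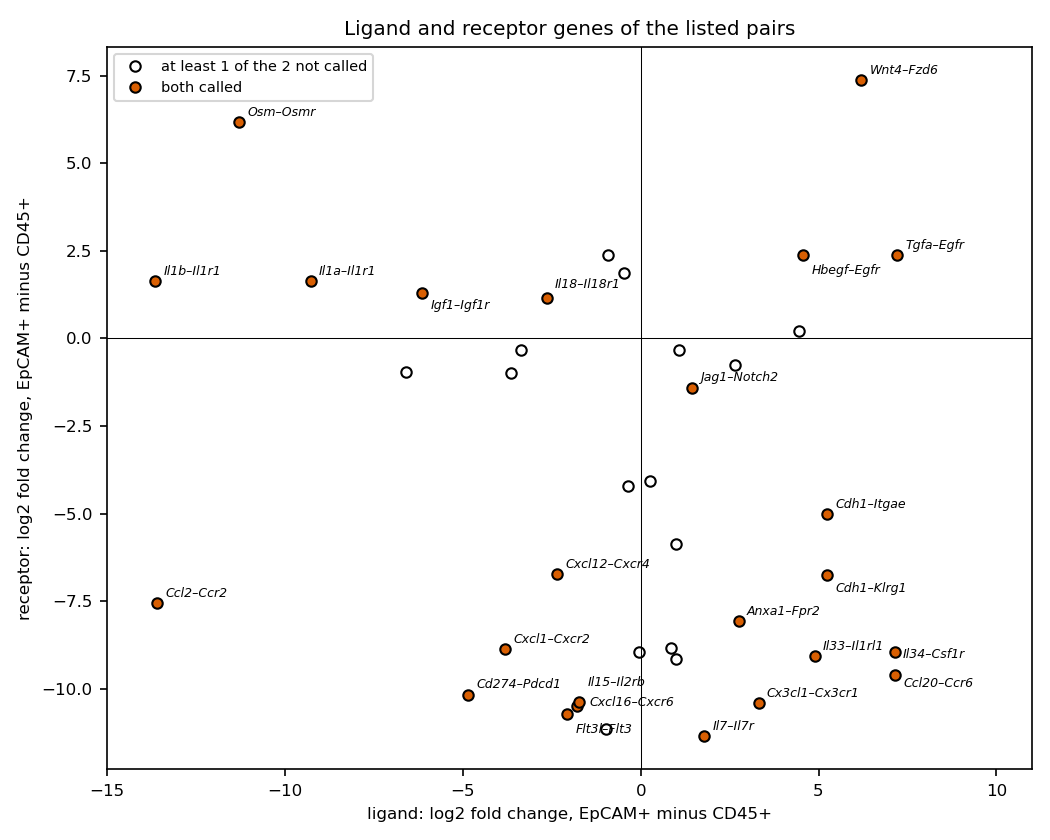
Log2 fold change, EpCAM+ minus CD45+, of the ligand (horizontal) and the receptor (vertical) for 39 of the 50 pairs, with both genes tested, filled for the 24 where both were called (1 further pair with both called is counted in the text and not drawn). The 9 filled points at the lower right have an epithelial ligand and a leukocyte receptor, and the 5 at the upper left the reverse.

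Matrix genes were higher in EpCAM+ cells in 14 of 23 tested and in CD45+ cells in 3. Lama5, a laminin chain of epithelial basement membranes, had 163 to 225 CPM (median 187) against 0, 4.01, 0.721 and 2.88 CPM (6.4 ± 0.6 SE, adjusted p = 2.54e-07), and Timp3, a metalloproteinase inhibitor, 5.72 ± 0.62 SE. The 3 exceptions were Fn1, the fibronectin gene, at 6.14 to 26.6 CPM (median 20.2) against 156, 1060.02, 206 and 515 CPM (-4.77 ± 0.55 SE, adjusted p = 2.25e-06), and the nidogens Nid1 (-5.13 ± 0.8 SE) and Nid2 (-3.84 ± 0.8 SE), linker proteins of basement membranes. Markers of other cells the gates could hold were scarce. Of 10 fibroblast genes only Dcn, the decorin gene, was tested. It had 248 to 549 CPM (median 320.1) in EpCAM+ cells against 5.68, 4.24, 23.5 and 6.23 CPM in CD45+ cells (5.1 ± 0.6 SE, adjusted p = 2.75e-06), with no overlap. Col1a1, the defining collagen of fibroblasts, had no counts in 5 of 7 EpCAM+ libraries and at most 2.53 CPM in the others. None of the 10 smooth muscle and cartilage genes and 1 of 8 neural and glial genes passed the filter. Endothelial genes summed to 1.24 to 9.79 (median 2.89) CPM in EpCAM+ cells and 42.6, 46.9, 99.8 and 23.7 CPM in CD45+ libraries 1 to 4, and 1 of the 2 tested was called, Pecam1 (-7.87 ± 0.65 SE), which leukocytes also express. Of 8 red blood cell genes 3 were tested and none was called by edgeR, DESeq2 or limma voom, nor was any below an unadjusted p of 0.05.

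Few genes of household functions were called. Of 20 oxidative phosphorylation genes none was called by edgeR, with 3 of 20 at an unadjusted p below 0.05, and DESeq2 and limma voom called 3 and 1. Of 20 ribosomal protein genes only Rps2 was called (1.8 ± 0.53 SE, adjusted p = 0.0118), a call lost in 5 of the alternative settings, among them those without CD45+ library 3 or 4. Ribosomal protein genes summed to 6759 to 33082 (median 7565) CPM in EpCAM+ cells and 22130, 8374, 10003 and 7948 CPM in CD45+ libraries 1 to 4. Oxidative phosphorylation genes summed to 3666 to 10636 (median 4571) CPM in EpCAM+ cells. EpCAM+ library 5 was the highest for both. With such spread, the lack of calls does not show equal levels. Of 15 glycolysis genes tested, Ldha was higher in EpCAM+ cells (1.1 ± 0.39 SE, adjusted p = 0.0361), a call lost in 12 of the alternative settings, and Pfkp (-1.98 ± 0.35 SE) was higher in CD45+ cells. The leukocyte hexokinase gene Hk3 had 28.4, 49.04, 29.1 and 62.3 CPM in CD45+ cells and 2 counts in EpCAM+ cells, a ratio of 637 (95% interval 176 to 5273). Of 20 proliferation genes Mki67, Mcm2 and Mcm5 were called higher in CD45+ cells, each with overlapping groups. That share was near the 16.3% over all genes tested. The calls of Mki67, Mcm2 and Mcm5 were lost in 9, 5 and 1 of the alternative settings, and without CD45+ library 2 both Mki67 and Mcm2 were lost. Without CD45+ library 1, 5 of the list were called higher in CD45+ cells. Immediate early genes, which tissue digestion can induce, were called for 5 of 18 toward EpCAM+ and 1, Klf2, toward CD45+ cells, and 12 were not called. Over all genes tested the shares were 21.5% and 16.3%, so the count toward EpCAM+ cells does not set this list apart. Fos had 4908 to 8461 CPM (median 7800.1) in EpCAM+ cells and 1493, 2408, 1461 and 3936 CPM in CD45+ cells (1.63 ± 0.46 SE, adjusted p = 0.00871), a call lost in 2 of the alternative settings. Jun (2.14 ± 0.54 SE), Egr1 (2.16 ± 0.42 SE) and Ier2 (2.49 ± 0.55 SE) were higher as well. The part of the digestion in these levels was not tested. Among 641 genes with at least 100 CPM in both groups, 97 had a 95% interval of the difference within 2-fold either way. The gene whose interval lay nearest 0 was Eprs, a transfer RNA synthetase, at 151 ± 26.3 and 153 ± 13.5 CPM, interval -0.69 to 0.64 on the log2 scale, followed by the translation factor gene Eif3h (-0.71 to 0.7) and the splicing factor gene Sf3b2 (-0.73 to 0.65).

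**Figure D5:**
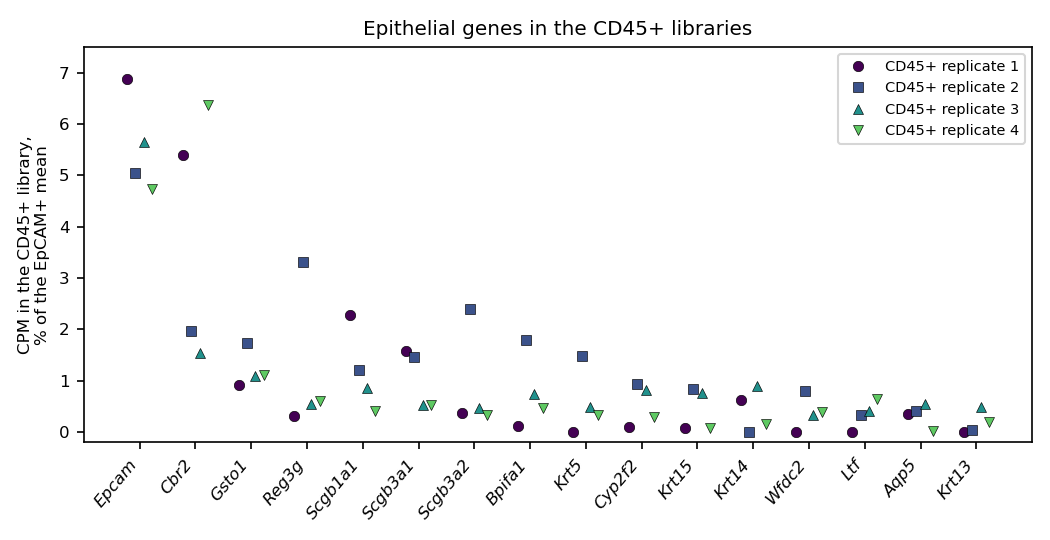
CPM of 16 epithelial genes in each CD45+ library as a percentage of the EpCAM+ mean, with 1 symbol per library. Epcam lies at 4.74 to 6.88% in all 4 libraries and Cbr2 at 1.54 to 6.37%, while the other 14 stay at or below 3.32%.

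Every CD45+ library held some epithelial RNA. Bpifa1 in CD45+ libraries 1 to 4 stood at 0.127, 1.79, 0.741 and 0.462% of its EpCAM+ mean, Krt5 at 0, 1.48, 0.497 and 0.342%, Scgb1a1 at 2.28, 1.22, 0.861 and 0.417% and Wfdc2 at 0, 0.811, 0.332 and 0.386%. Library 2 was the highest for Bpifa1, Krt5 and Wfdc2, and library 1 for Scgb1a1. Epcam was higher and more even, at 6.88, 5.04, 5.66 and 4.74%. In the other direction, the 20 B and plasma cell genes summed to 4.51 to 26.1 (median 10.9) CPM and the 26 T cell genes to 1.59 to 42.95 (median 8.23) CPM in EpCAM+ cells, the highest T cell sum being that of library 7. Whether these low levels come from cells that passed the gate, from free RNA or from expression in the cells sorted was not tested.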

How the data were processed

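Bulk RNA-seq of 18 libraries was deposited, of which the 7 EpCAM+ and 4 CD45+ libraries of mouse trachea are used here. The authors deposited a table of raw read counts per gene symbol, not normalized, and per-library RSEM tables of expected counts and TPM, the latter scaled by transcript length and to a fixed total. The submitters' processing notes name STAR 2.4.2a, RSEM 1.2.21, featureCounts, DESeq2 and build mm10 without roles. The sources used here give neither the annotation nor the strand setting. Expected counts were rounded before testing, as an alternative only.

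Counts were tested with edgeR 4.0.16 in R 4.3.3 (TMM scaling, filterByExpr with a minimum count of 10, quasi-likelihood F test, Benjamini-Hochberg), which kept 12516 of 26327 genes. CPM use the scaled library sizes. The SE of a log2 fold change is its size over the root of F. Alternatives used DESeq2 1.42.0, limma 3.58.1 and the settings given in the closing section. No library pair within a group agreed within sampling noise (27 pairs, lowest chi-square per degree of freedom 6.107).

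Genes named are the 4 most abundant called members of each of 37 lists with any called against it, the 20 largest differences and the 20 highest TPM per group, and the genes nearest to no difference. The TPM ranking left out the genes given with it above. Genes outside these rules, such as Muc5b, Pigr, Trp63, Foxj1, Nkx2-1, Grhl2, Spi1, Pax5, Cdh1, Cftr, Tlr4, the genes of ligand and receptor pairs and uncalled list members, were chosen after their values were seen. Some members of the lists and pairs are counted but not reported by name here. Members and lists were chosen with earlier results of these data known. Promoter windows are RefSeq sequences of GRCm38.p6, and gene coordinates are GENCODE positions on GRCm38. Intervals of count ratios, and floors, cover counting error only, while intervals of log2 differences also include the variation among libraries.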

Additional observations from a re-analysis of the deposited data

Results flagged for a closer look

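Among 167 groups of values checked, 19 held a library whose gap to its nearest neighbour exceeded Dixon's critical value. Chance flags about 1 in 20 such groups, and the values of 1 library are not independent of each other.

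EpCAM+ library 5 gave 10 of them. Its median correlation with the other EpCAM+ libraries was 0.7794, the lowest. It was the highest for the summed xenobiotic genes at 99162 CPM and the summed ciliated genes at 1664 CPM, and for Scgb1a1 at 18888 CPM, B2m at 1169 CPM, Cldn3 at 1141 CPM, Ccl20 at 214 CPM, Eprs at 205 CPM and Rnf186 at 158 CPM. It was the lowest for Krt5 at 298 CPM. Not every list sum was among the groups checked. Of those left out, library 5 was also the highest for ribosomal protein, surface protease and matrix genes, at 33082, 9863 and 3590 CPM.

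EpCAM+ library 7 was the highest for summed T cell genes, 43.0 CPM, and for summed mast cell and basophil genes, 60.8 CPM, both far below the CD45+ levels. EpCAM+ library 6 was the highest for Lyz1 at 917 CPM.

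CD45+ library 1, the shallowest, had the fewest genes detected, 10317, and the lowest correlation with its group, 0.7346. It was the lowest for H2-K1 at 1119 CPM and the highest for Ccl4 at 2399 CPM. Its ribosomal protein sum, 22130 CPM and not among the groups checked, was the highest of the CD45+ libraries. CD45+ library 3 was the highest for Ighg2b at 1369 CPM and for Dcn at 23.5 CPM.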

How the results depend on the processing

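Across the alternatives other than dropping the low-count filter, the numbers of genes called in each direction stayed within 1.5 times of the 2689 and 2043 reported. Without a filter, 3106 genes were called higher in CD45+ cells and 2970 higher in EpCAM+ cells. Leaving out each library in turn gave 2361 to 2780 genes higher in EpCAM+ and 1855 to 2468 higher in CD45+ cells. The share of calls toward EpCAM+ cells was 56.8% and lay between 48.9 and 59.4% over the alternatives. Leaving out ribosomal RNA genes moved the median of all genes by -0.108. Of 167 genes called and named, 148 were called in the same direction in every setting in which they were tested. From RSEM expected counts Cfap43 turned to -1.96 and Tmsb4x to -2.18, and the cause was not tested. With the replicate number as a block, replicates 1 to 4 gave 1986 and 1672 genes, against 2174 and 1900 for the same libraries without the block. Deviations across genes of libraries with the same number had correlations of -0.0361, 0.196, -0.0157 and -0.0835 for replicates 1 to 4. Whether the same number means the same animals is not given, and 4 such values cannot decide it. The main test treated the groups as unpaired. The low depth of CD45+ library 1, 371652 counts, limits what can be said of genes under about 10 CPM there.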

Other observations

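The count table and the RSEM tables of the same libraries disagreed for Tmsb4x, the thymosin beta 4 gene. The count table held 52 counts over the 7 EpCAM+ libraries and 7 over the 4 CD45+ libraries. The RSEM tables gave 1703 ± 723 TPM in EpCAM+ cells (SD, n = 7) and 7548 ± 4346 TPM in CD45+ cells (SD, n = 4), among the 20 most abundant genes there by the same ranking. The direction of the difference was opposite, at 1.88 log2 without a call from counts and -2.18 log2 from expected counts.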
